A study of Mus musculus with 6 samples.

Results

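Synemin and 6 further genes of the muscle intermediate filament system (Synm, Des, Vim, Nes, Sync, Plec and Cryab) were followed through poly-A selected RNA-seq libraries of mouse quadriceps muscle. They are 7 of the 33641 gene symbols in the deposited table and were taken by symbol, which gave 47 of its 105129 transcript rows. The study compared 3 male mice carrying on both chromosomes a murine Nr3c1 allele with the human glucocorticoid receptor variant rs6190 (homozygous) with 3 male mice carrying the reference allele on both (WT). All were littermates of heterozygous parents, aged 4 months and sampled about ZT4, 4 h after lights on. The allele is present in the whole animal and the muscle was sampled in bulk, so fewer cells of a type and less RNA per cell cannot be told apart. The labels number the replicates without naming the mouse, so p-values measure the spread between these samples.

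Intermediate filaments are rope-like polymers that tie the Z-discs of neighbouring myofibrils to each other, to the nuclei and to the sarcolemma. Desmin (Des) is the main filament protein of the mature fibre. Synemin (Synm) and syncoilin (Sync) join desmin or link it to the dystrophin-associated complex, and vimentin (Vim) and nestin (Nes) are filament proteins of developing muscle and of several non-fibre cells. Plectin (Plec) is a giant linker that anchors the filaments, and alpha-B crystallin (Cryab) is a small heat shock protein that chaperones desmin. Mutations of DES, CRYAB and PLEC cause human muscle disease with disturbed filament networks.

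The 7 genes were selected with the homozygous and WT values already known, so every difference between the genotypes in these genes is given as a description without a test. Values are TPM (transcripts per 1000000, an abundance per transcript length), summed over the isoforms of a gene, and values in a row are in the order of replicates 1, 2 and 3. WT replicate 3 stood apart from the other libraries. Its 11 fast-fibre marker genes summed to 228619 TPM, against 95696 to 129968 TPM in the other 5 libraries. With the genes split by transcript length into 4 equal classes, its median deviation from the mean of the libraries was -0.44 on the log2(TPM + 1) scale in the longest class and -0.03 in the shortest. Mitochondrial transcripts took 14.3% of its TPM, against 20.9% to 33.9% in the other 5. Over all 11099 genes tested, the median log2 fold change (homozygous minus WT) was 0.26. Depth was estimated from the spacing of low values at 15.7 to 21.6 M fragments per library (M, 1000000).

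Of the 47 rows, the widest difference in isoform share between the genotypes was in a short splice form of synemin. Synm lies on the minus strand of chromosome 7 (67730160 to 67759742, GRCm38, GENCODE M21), where Ttc23 and Gm45102 overlap it on the opposite strand, and the table holds 5 isoforms of it. The 3 forms Synm-202, Synm-201 and Synm-204 begin in the same first exon and use the same last exon. Synm-201 (6953 nt, 1259 codons) joins 5 exons. Synm-202 (7818 nt, 1561 codons) keeps the 906 nt intron after exon 4, which adds 302 codons in frame. Synm-204 (4457 nt, 371 codons) leaves out exon 4, a coding exon of 2447 nt at 67734460 to 67736906. In layout they match the long (H or alpha), medium (M or beta) and low (L) synemin forms known in rodents, of which the low form lacks nearly the whole tail domain. The joins that set them apart are shown as 30 bases of exon 3 or exon 4 in lower case, followed in capitals by 30 bases of what comes next in the transcript (GENCODE M21 transcripts, 5′ to 3′).
Synm-201 exon 3 to exon 4: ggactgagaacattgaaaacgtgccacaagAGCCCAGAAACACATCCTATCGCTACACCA
Synm-201 exon 4 to exon 5: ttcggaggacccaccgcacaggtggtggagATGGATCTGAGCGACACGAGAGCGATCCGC
Synm-202 exon 4 into the retained intron: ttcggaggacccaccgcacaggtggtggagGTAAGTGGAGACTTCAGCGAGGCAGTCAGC
Synm-204 exon 3 to the last exon: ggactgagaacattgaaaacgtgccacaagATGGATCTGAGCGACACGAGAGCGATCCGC

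The length of the skipped exon leaves a remainder of 2 over 3, so the last exon is read in another frame in Synm-204. That frame ends after 107 nt, against 324 coding nt of the same exon in Synm-201. The stretch of the last exon read by Synm-204 is shown because it is the whole coding end that this form has in place of the tail, with its stop codon in capitals.
Synm-204 last exon: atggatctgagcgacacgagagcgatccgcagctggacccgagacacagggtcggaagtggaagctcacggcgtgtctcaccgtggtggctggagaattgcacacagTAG
All 4457 bases of Synm-204 are also in Synm-201. Only fragments that cross the exon 3 to last exon join are particular to it, and the rest of its value depends on how the quantifier divided shared fragments. Reads were not analysed here, so whether fragments across that join or the shape of coverage along the gene gave the Synm-204 values was not tested.

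**Figure D1:**
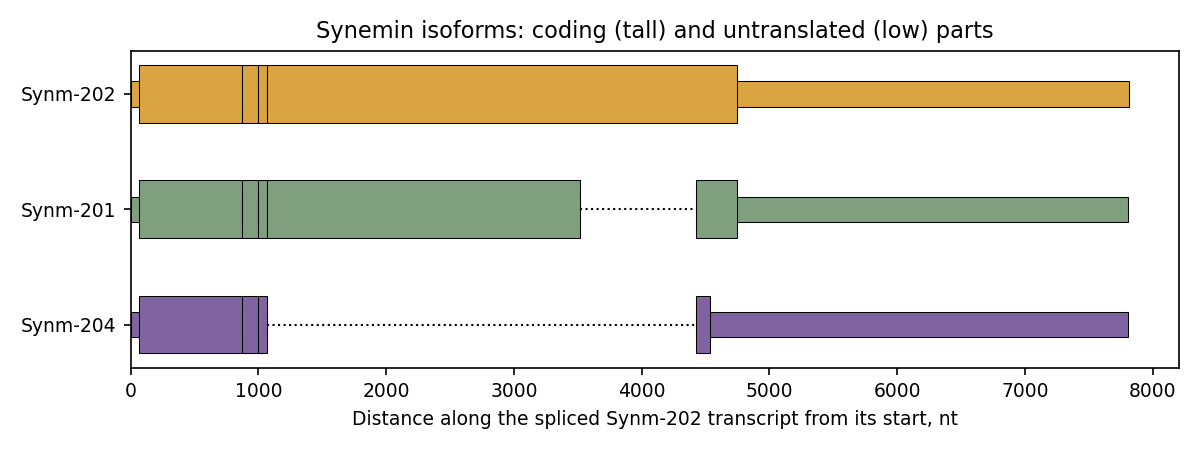
The 3 main synemin isoforms drawn to scale along the spliced Synm-202 transcript, in nt from its start, with coding parts tall, untranslated parts low and left-out stretches dotted. Synm-204 lacks the 2447 nt exon that Synm-201 and Synm-202 share and stops early in the last exon.

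Synm-204 was 30.2, 21.4 and 74.6 TPM in WT replicates 1, 2 and 3. In homozygous replicates 1, 2 and 3 it was 0.629, 0 and 5.85e-07 TPM. The quantification thus assigned TPM to the exon-skipped form in all 3 WT libraries and little or none in the homozygous libraries. The WT values rested on an estimated 2177, 1361 and 5133 fragments, and those of homozygous replicates 1 and 2 on 49.7 and 0. As a share of the synemin total, Synm-204 made up 21.5%, 16.4% and 73.5% in the WT libraries and at most 0.335% in the homozygous libraries. The mean share was 37.1% ± 31.6 in WT and 0.112% ± 0.193 in homozygous muscle (SD, n = 3 each), a difference of -37.0 percentage points, and of -18.8 points without WT replicate 3. The groups did not overlap with or without that library.

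Synm-201, the major form, was 179, 152 and 168 TPM in homozygous muscle, against 107, 101 and 24.5 TPM in WT muscle. It made up 94.0% to 95.3% of the synemin total in homozygous muscle, against 76.4%, 77.7% and 24.1% in WT replicates 1, 2 and 3. Its log2 fold change was 1.35 (SE 0.54), and 0.66 without WT replicate 3. Synm-202, whose extra stretch is known to bind vinculin and talin, was 7.99, 9.45 and 9.51 TPM in homozygous muscle, against 2.95, 7.57 and 2.44 TPM in WT muscle. The groups did not overlap for Synm-202, but WT replicate 2 lay close to the homozygous libraries. Its share of the total overlapped between the groups, at 4.26% to 5.85% and 2.10% to 5.80%. Transcripts that hold the whole skipped exon made up 99.5% or more of synemin TPM in each homozygous library and 78.5%, 83.5% and 26.5% in WT replicates 1, 2 and 3. The remaining forms, Synm-203 and Synm-205, stayed under 0.5 TPM in every library.

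**Figure D2:**
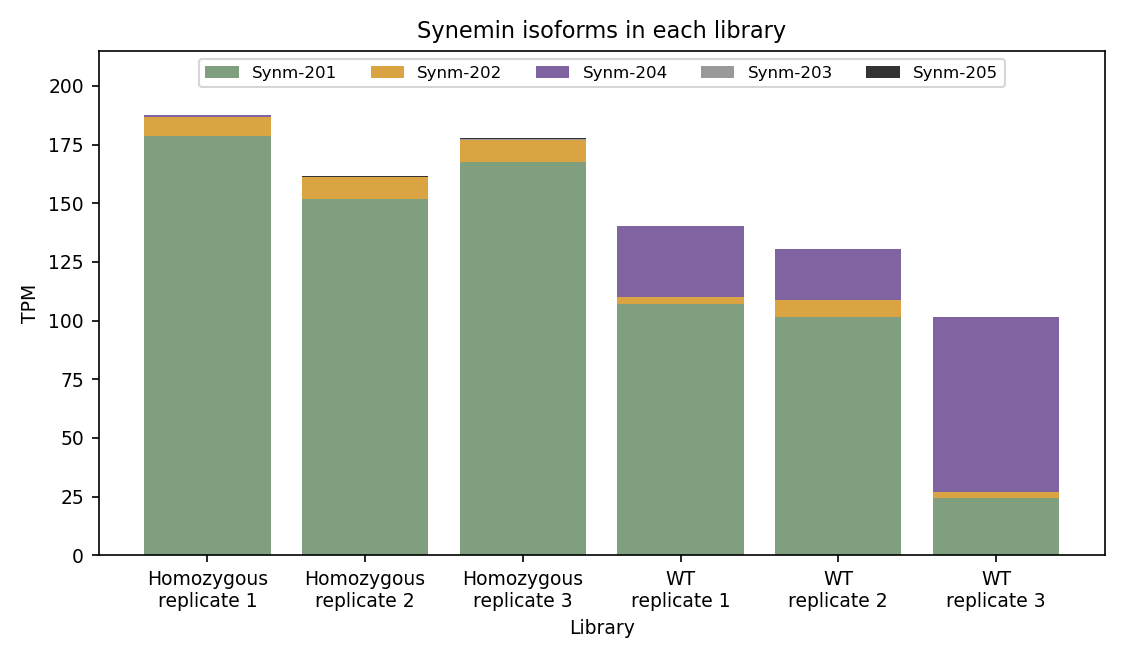
TPM of each synemin isoform, stacked, in the 3 homozygous and 3 WT libraries. The Synm-204 segment is 21.4 to 74.6 TPM in WT and is not visible at this scale in the homozygous libraries.

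Among 21165 isoforms tested with limma on log2(TPM + 1), 9 passed an adjusted p under 0.05, 8 of them higher and 1 lower in homozygous muscle, and Synm-204 was the lower isoform. That is 1 of the 23 member isoforms tested, beside a background of 0.0425% in either direction, 0.0378% higher and 0.00472% lower. Groups without overlap were seen in 10 of the 23 with homozygous muscle higher (background 25.6%) and in 1 with it lower (background 2.11%). At an unadjusted p under 0.05 in limma, 14.2% of all isoforms were higher and 1.52% lower. It passed the filter on low values through the WT group alone, and it was chosen from this contrast, so nothing is read from that call. The call held in 2 of the 11 alternative fits that tested it, and without any 1 of the WT libraries the isoform fell below the filter. Over 22393 isoforms of genes with at least 10 TPM in every library, the Synm-204 share had the 4th most negative difference between group means. That rank describes a value known at selection. It uses a WT mean that rests largely on replicate 3 (73.5%, against 21.5% and 16.4%), and no rank was taken without that library. Shares lower in homozygous muscle without overlap were common, with 5.54% of isoforms, and 417 isoforms had such a difference of at least 10 points. The median over 3212 genes of isoform length, weighted by TPM, was 1710 nt in WT replicate 3 and 1758 to 1774 nt in the other libraries. How far the length-dependent shift of WT replicate 3 bears on the synemin shares was not tested.

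Summed over its isoforms, Synm was 188, 162 and 178 TPM in homozygous replicates 1, 2 and 3 and 140, 130 and 102 TPM in WT replicates 1, 2 and 3. The lowest homozygous library was above the highest WT library. Group means were 176 ± 13.2 and 124 ± 20.2 TPM (SD, n = 3 each), and the log2 fold change of 0.51 (SE 0.16) lay 0.24 above the all-gene median. The difference was smaller with the transcript length trend of each library removed, at 0.12 (SE 0.13). The ratio of the group means was 1.42 for the sum and 2.14 for Synm-201.

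The promoter of synemin is shown beside that of desmin, its filament partner, as sequence context. All 7 sums were higher in homozygous muscle, so that does not set these genes apart. Whether the receptor acts on either promoter was not tested. The 250 bases before the start are from RefSeq on GRCm38.p6, which held 5 of the 7 genes (Des, Nes, Sync, Synm and Vim). Capitals mark E boxes (CANNTG, a pattern that reads the same on both strands and is the core site of bHLH factors in general). Which bHLH factor a match would suit was not considered.
Synm, chr7:67759743-67759992, minus strand: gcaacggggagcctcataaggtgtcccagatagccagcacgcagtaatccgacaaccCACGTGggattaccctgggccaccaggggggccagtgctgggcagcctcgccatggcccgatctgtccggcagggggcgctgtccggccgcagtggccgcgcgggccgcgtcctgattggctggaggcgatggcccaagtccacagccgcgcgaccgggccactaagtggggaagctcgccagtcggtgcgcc
Des, chr1:75360042-75360291, plus strand: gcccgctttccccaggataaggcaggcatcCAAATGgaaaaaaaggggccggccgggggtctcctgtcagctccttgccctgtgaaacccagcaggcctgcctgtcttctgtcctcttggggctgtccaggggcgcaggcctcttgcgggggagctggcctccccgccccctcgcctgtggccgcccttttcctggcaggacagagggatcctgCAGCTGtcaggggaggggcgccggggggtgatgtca
Synm had 1 E box and Des had 2, and 66.2% of all 32851 promoter windows of this length had at least 1. The hexamer bound by 1 glucocorticoid receptor subunit (AGAACA, both strands) was found in 16.1% of all windows. It had 1 match in Nes and 0 in Synm, Des, Sync and Vim. The full receptor element (AGAACA and TGTTCT with 3 bases between, which contains the hexamer) had 0 matches in the 5 genes, and 0.00913% of all windows had it.

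Levels of the 7 genes spanned more than 2 orders of magnitude. Over all 6 libraries Des had the highest mean (1521 TPM), followed by Cryab (1032), Synm (150), Vim (49.9), Plec (42.9), Sync (12.4) and Nes (5.52 TPM). Ranges over the libraries overlapped between Des and Cryab, between Vim and Plec, and between Sync and Nes, and did not overlap at the other steps of this order. In all 7 genes the 3 homozygous libraries lay above the 3 WT libraries. The same held for 34.7% of the 11099 genes tested, so that pattern was frequent, while 0.73% had the opposite one. No gene of the 7 passed an adjusted p under 0.05 in limma (0 of 7, background 0.0%). Over all genes, 2636 were higher and 61 lower at an unadjusted p under 0.05 in limma. With limma array weights, which estimate a weight per library, 810 genes were called in either direction. Vim and Plec were among them (2 of 7, background 7.06% higher). No other alternative gene fit called any of the 7. The 7 were chosen from this contrast, so nothing is read from these calls. The median log2 fold change of the 7 was 0.59, against 0.26 over all genes.

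**Figure D3:**
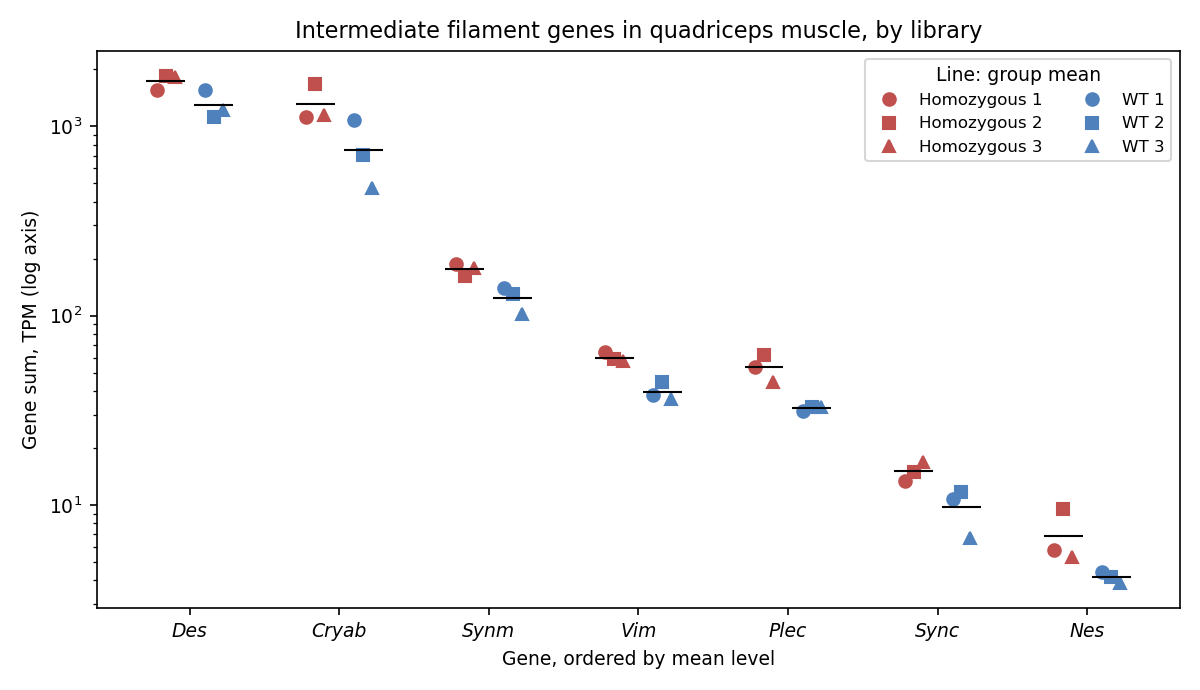
Gene sums in TPM on a log axis for the 7 genes, ordered by mean level, with 1 point per library and a line at each group mean. The homozygous points lie above the WT points for every gene, by a narrow margin in Des and Cryab, where WT replicate 1 comes closest.

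Desmin, the core filament subunit, was 1563, 1842 and 1832 TPM in homozygous replicates 1, 2 and 3 and 1554, 1118 and 1216 TPM in WT replicates 1, 2 and 3. Homozygous replicate 1 and WT replicate 1 were nearly equal, and the separation came from the other libraries. Group means were 1746 ± 159 and 1296 ± 228 TPM (SD, n = 3 each), and the log2 fold change of 0.44 (SE 0.18) lay 0.17 above the all-gene median. The value was 0.12 (SE 0.17) with the length trend removed. The coding transcript Des-201 held 99.3% to 99.7% of the total in every library, and both other rows are retained-intron fragments. Des (chromosome 1, 75360329 to 75368579, plus strand) overlaps an antisense gene, Gm15179, and the strand setting of the quantification was not given in the sources used here.

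Syncoilin, which binds desmin and alpha-dystrobrevin, was 13.4, 14.9 and 16.98 TPM in homozygous muscle, against 10.8, 11.7 and 6.68 TPM in WT muscle. WT replicate 3 was the lowest and the margin between the groups was otherwise small. The log2 fold change was 0.62 (SE 0.21), and 0.39 without WT replicate 3. Sync-201 held 92.9% to 95.7% of the total, with no shift between the groups. Sync (chromosome 4, 129287617 to 129308559, plus strand) overlaps Rbbp4 on the opposite strand.

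Vimentin, the filament protein of mesenchymal and endothelial cells, was 64.1, 58.9 and 57.3 TPM in homozygous muscle, against 38.0, 44.6 and 36.4 TPM in WT muscle. Group means were 60.1 ± 3.54 and 39.6 ± 4.36 TPM (SD, n = 3 each), and its log2 fold change was 0.59 (SE 0.13). The separation rested on a short retained-intron row. That row, Vim-203 (535 nt), was 27.8, 22.5 and 24.5 TPM in homozygous muscle, against 14.2, 6.05 and 16.9 TPM in WT muscle, from an estimated 34.4 to 194 fragments. The full-length coding form Vim-201 holds 483 of the 535 bases of Vim-203, so both values depend on how shared fragments were divided. Vim-201 was 33.1, 32.8 and 31.3 TPM in homozygous muscle, against 21.7, 36.5 and 19.2 TPM in WT muscle. WT replicate 2 was the highest of the 6 libraries for Vim-201, so the groups overlapped for the coding form. The sum without Vim-203 was 35.1 ± 2.01 against 27.3 ± 9.999 TPM (SD, n = 3 each), also with overlap. Vim (chromosome 2, 13573927 to 13582826, plus strand) overlaps no other annotated gene.

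Nestin, a filament protein of satellite cells, nerve endings and capillaries, was the lowest of the 7, at 5.79, 9.50 and 5.35 TPM in homozygous muscle, against 4.45, 4.15 and 3.90 TPM in WT muscle. Homozygous replicate 2 stood above the rest, and the log2 fold change of 0.57 (SE 0.21) was 0.35 without it. Its main form, Nes-201, was 5.65, 9.03 and 5.25 TPM in homozygous muscle, against 4.38, 3.88 and 1.85 TPM in WT muscle. Nestin showed an isoform split in WT replicate 3. There Nes-203, which lacks 168 bases of Nes-201 and has no bases of its own, was 1.93 TPM, or 49.5% of the total. In the other 5 libraries Nes-203 held at most 0.250%. The share of Synm-204 was also highest in WT replicate 3, at 73.5%, against 21.5% and 16.4% in WT replicates 1 and 2. Nes-203 and Synm-204 are both wholly nested in their main forms. The part of the length shift of WT replicate 3 in the nestin split was not tested. Nes lies on chromosome 3 (87971078 to 87980451, plus strand).

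Plectin, the linker that joins filaments to Z-discs, costameres, mitochondria and nuclei, was 53.5, 62.3 and 44.8 TPM in homozygous muscle, against 31.4, 32.9 and 32.8 TPM in WT muscle. The WT libraries lay close together and the homozygous libraries were spread above them. The log2 fold change was 0.70 (SE 0.15), 0.43 above the median of all genes, and 0.26 (SE 0.18) with the length trend removed. Part of the sum came from Plec-219, a 254 nt row whose 3.26 to 14.1 TPM rested on an estimated 5.23 to 19.0 fragments. Without it the sums were 43.9, 48.2 and 40.6 TPM in homozygous muscle, against 28.2, 29.5 and 29.4 TPM in WT muscle, still without overlap. Plec (chromosome 15, 76170974 to 76232574, minus strand) overlaps Parp10 on the same strand.

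Plectin has 22 rows, of which 5 were at 0 in all libraries, and its long forms differ mainly in the first exon, which sets where the protein is sent in the cell. The first 60 coding bases of Plec-202 and Plec-206 are shown, with the start codon in capitals. They were picked because their coding sequence begins with a long stretch (112 and 85 coding nt) in a first exon that Plec-215 and Plec-217 lack. Plec-212 and Plec-218 have the same first exon as Plec-202, so the Plec-202 row does not hold all use of that exon. In the same way, Plec-219 has the first exon of Plec-215.
Plec-202: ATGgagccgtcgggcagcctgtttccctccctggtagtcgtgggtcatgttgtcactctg
Plec-206: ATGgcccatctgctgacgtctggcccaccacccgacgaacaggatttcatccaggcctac
Plec-215 has 16 coding nt in its first exon, and the coding sequence of Plec-217 begins in an exon that the other 3 forms also hold. Plec-215 and Plec-217 share 14714 bases, and the 139 and 113 bases that differ between them are their first exons. Plec-202 was 8.32, 10.2 and 12.6 TPM in homozygous muscle, against 5.37, 4.65 and 3.70 TPM in WT muscle, without overlap, and its log2 fold change was 1.02 (SE 0.21). It was 0.55 with the length trend removed, 0.77 after quantile normalization and 0.75 after centring on medians. Plec-215 overlapped, at 18.4, 18.4 and 10.9 TPM in homozygous muscle, against 4.96, 13.2 and 5.63 TPM in WT muscle. Plec-217 also overlapped and ran from 1.68 TPM in homozygous replicate 3 to 16.7 TPM in WT replicate 3. Its log2 fold change of -0.52 (SE 0.72) became 0.28 without homozygous replicate 3. Plec-206 ran from 0.121 TPM in WT replicate 2 to 11.6 TPM in homozygous replicate 3. Their shares overlapped between the groups for all 4 forms.

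Alpha-B crystallin had the largest log2 fold change among the 7 in the deposited values, and also the widest spread within groups. It was 1120, 1671 and 1144 TPM in homozygous muscle, against 1077, 705 and 473 TPM in WT muscle. Homozygous replicate 1 and WT replicate 1 differed little, and homozygous replicate 2 and WT replicate 3 formed the ends. Group means were 1312 ± 312 and 752 ± 305 TPM (SD, n = 3 each), and the log2 fold change was 0.86 (SE 0.31), and 0.56 without WT replicate 3. Cryab-205 held 87.3% to 95.5% of the total. It has 175 codons, as do Cryab-201, Cryab-203 and Cryab-206.

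Cryab is enriched in slow, oxidative fibres, and its level was read beside the slow-fibre marker genes in each library. The 9 slow-fibre genes include slow myosin and troponin genes. Their sum was 1887, 9653 and 2220 TPM in homozygous replicates 1, 2 and 3. In WT replicates 1, 2 and 3 it was 1718, 1110 and 243 TPM. The 6 libraries had the same order for Cryab and for this sum. Both separated the genotypes, which fixes part of that order, and Hspb7 (given below) had the same order. The sum ran from 243 to 9653 TPM and Cryab from 473 to 1671 TPM. All 9 slow-fibre genes had a positive log2 fold change (median 2.38), 0 passed the adjusted threshold in limma and 1 had an unadjusted p under 0.05. None of the 9 was at 0 in all libraries. The part of fibre composition in the Cryab difference was not tested. Cryab (chromosome 9, 50751325 to 50756636, plus strand) overlaps Hspb2, a further small heat shock gene read from the opposite strand. Hspb2 was 115, 148 and 133 TPM in homozygous muscle, against 84.2, 114 and 109.7 TPM in WT muscle, without overlap.

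**Figure D4:**
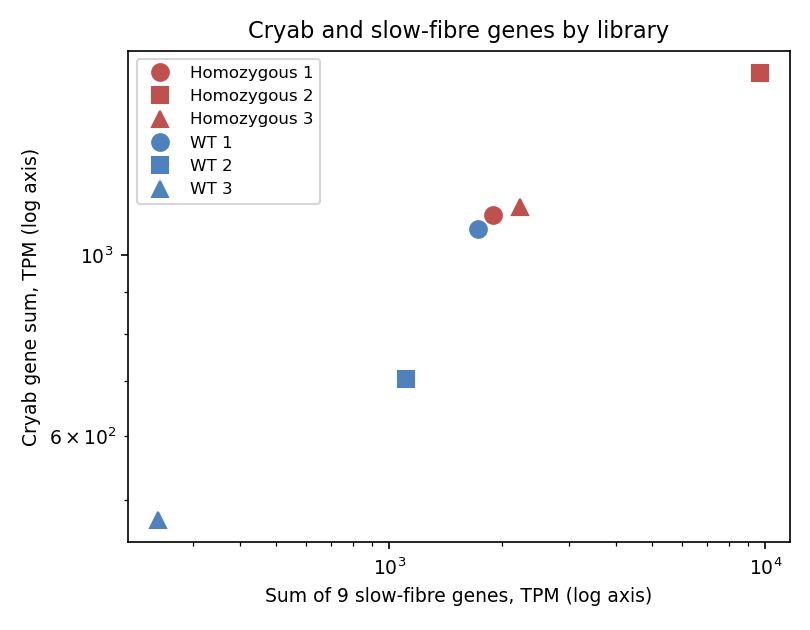
Cryab in TPM against the sum of 9 slow-fibre genes in TPM, both on log axes, with 1 point per library. WT replicate 3 (243 and 473 TPM) and homozygous replicate 2 (9653 and 1671 TPM) are the ends of the same order in both measures.

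Markers of other cell types were read beside these genes, since Vim, Nes and Synm are also made outside the fibre. Of the endothelial genes 6 of 6 had a positive log2 fold change, and their sum was 39.0 to 45.9 TPM in homozygous muscle, against 29.9 to 42.7 TPM in WT muscle. Smooth muscle and pericyte genes were positive in 6 of 6 tested, with sums of 86.8 to 94.8 and 61.8 to 82.8 TPM, without overlap. Schwann cell genes were positive in 4 of 4 tested and summed to 28.5 to 104 TPM in homozygous and 15.9 to 25.2 TPM in WT muscle, also without overlap. Neuromuscular junction genes were positive in 5 of 5 tested and summed to 49.7 to 58.0 and 36.2 to 46.3 TPM, without overlap. The groups overlapped for fibroblast genes (4 of 6 positive, 167 to 196 and 88.2 to 239 TPM) and for satellite cell and regenerating fibre genes (3 of 4 positive, 14.7 to 43.6 and 15.5 to 24.2 TPM). They also overlapped for immune genes (3 of 3 positive, 38.4 to 56.1 and 12.4 to 52.2 TPM) and adipocyte genes (2 of 3 positive, 145 to 182 and 144 to 168 TPM). Median log2 fold changes were 0.21 for endothelial, 0.29 for smooth muscle and pericyte and 0.32 for neuromuscular junction genes, against 0.26 over all genes. They were 1.32 for Schwann cell, 0.74 for immune, 0.37 for satellite cell, 0.19 for fibroblast and 0.08 for adipocyte genes. Of all single genes, 34.7% were higher in homozygous muscle without overlap, and no background was taken for list sums or for signs. At an unadjusted p under 0.05 in limma, 4 of 4 tested Schwann cell genes were higher, against 23.7% of all genes. So were 1 endothelial, 1 smooth muscle and pericyte and 1 immune gene, while 1 satellite cell gene was lower (0.55% of all genes). The neuromuscular junction, fibroblast and adipocyte lists had 0. No marker of these lists was at 0 in all libraries, and the part of other cell types in the Vim, Nes and Synm values was not tested.

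Genes that bind, anchor, fold or turn over the filaments were taken as 5 lists. None of their 39 tested genes passed the adjusted threshold in limma (background 0.0%). At an unadjusted p under 0.05 in limma, 17 were higher and 1 lower, against 23.7% and 0.55% of all genes. Small heat shock proteins and filament chaperones had a median log2 fold change of 0.46 over 9 tested genes, of which 8 were positive. The largest differences there were in Hspb7, a heart and muscle small heat shock protein, and Hspb6. Hspb7 was 255, 502 and 324 TPM in homozygous muscle, against 226, 115 and 33.5 TPM in WT muscle. It did not overlap between the groups, with a log2 fold change of 1.85 (limma, SE 0.67 and adjusted p = 0.184). Hspb6 was 827, 1003 and 704 TPM in homozygous muscle, against 635, 447 and 431 TPM in WT muscle, without overlap, and its log2 fold change was 0.75. Hspb8 and Hspa8 were nearly equal, at 0.04 and -0.02.

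The anchors at the Z-disc, costamere and membrane had a median log2 fold change of 0.35 over 15 tested genes, 12 positive and 3 negative. Actn2, the alpha-actinin that synemin binds at the Z-disc, was 480, 555 and 334 TPM in homozygous muscle, against 331, 222 and 134 TPM in WT muscle, and its log2 fold change was 1.06 (limma, SE 0.33 and adjusted p = 0.168). Dmd, the gene of dystrophin, was 24.9 ± 6.26 against 12.9 ± 4.80 TPM (SD, n = 3 each), also without overlap. Actn3, the alpha-actinin of fast fibres, had a log2 fold change of -0.58 with overlapping groups, its highest value being 7082 TPM in WT replicate 3. Dtnb, a dystrobrevin, was at -0.17.

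Plakins and desmosomal linkers had a median of 0.42 over 4 tested genes, all positive. Dst, the giant dystonin linker, was 67.1 ± 5.66 against 44.2 ± 6.69 TPM (SD, n = 3 each) without overlap, and its log2 fold change was 0.60 (limma, SE 0.15 and adjusted p = 0.168). Jup was at 0.45, Macf1 at 0.39 and Ppl at 0.37. Of the 14 other intermediate filament genes, 3 were tested, all of them lamins, with a median of 0.09 that became -0.18 after quantile normalization, -0.22 after centring on medians and -0.23 after removal of the length trend. Lmna was 38.1 ± 8.10 against 27.7 ± 3.03 TPM with overlap, and Lmnb1 and Lmnb2 were at 0.04 and 0.09. Keratins, neurofilaments and Gfap lay below the filter of 1 TPM in at least 3 libraries. Filament phosphorylation and turnover genes had a median of 0.22 over 8 tested genes, below the median of all genes, and -0.037, -0.077 and -0.042 under the same 3 treatments. Gsk3b, whose kinase phosphorylates desmin, was at 0.55 and Nedd4 at 0.44. Pak1, a kinase known to phosphorylate filament proteins, was at -0.61 and Capn1 at 0.05.

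The 7 fold changes all kept their sign under 15 alternative treatments of the values, but their size varied. After quantile normalization, which gives every library the same distribution of values, Synm was at 0.32, Vim at 0.36, Nes at 0.28, Sync at 0.32 and Plec at 0.45. Cryab was at 0.72, and Des was higher than in the deposited values, at 0.54. With the length trend removed, Cryab (0.70) and Vim (0.38) were the largest of the 7 and Synm and Des (0.12 each) the smallest. The Synm-204 fold change on the log2(TPM + 1) scale was -4.99 in the deposited values and -5.32 with the length trend removed. It depends on the pseudocount and is no bound.

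**Figure D5:**
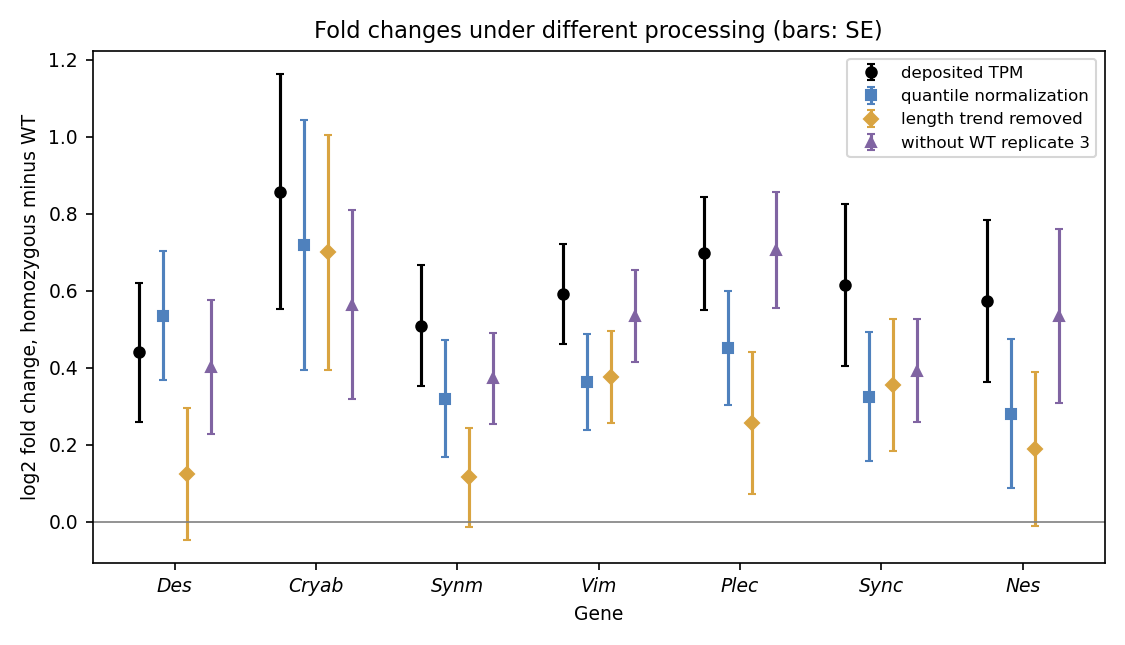
Log2 fold change (homozygous minus WT) of the 7 gene sums with its SE, from the deposited TPM, after quantile normalization, after removal of a length trend and without WT replicate 3. All values are above 0, and removal of the length trend leaves Synm and Des lowest, at 0.12 each.

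The genes whose levels followed the members most closely over the 6 libraries were listed as a description. For Synm these were Gm20716, Asb14, Rps6kb1, Foxo4 and Colgalt1, with Pearson's r of 0.993 to 0.998 on log2(TPM + 1). For Des they included Ran, Golga4, Kars and Zrsr1 (r 0.994 to 0.999), and for Vim Zfp317, Elf1, Setd6, Ltbp1 and Zfp964 (r 0.989 to 0.996). The points share the genotype difference and the depth of each library. Between the members themselves r ran from 0.603 (Synm and Nes) to 0.919 (Nes and Plec).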

How the data were processed

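RNA-seq of quadriceps muscle from 3 homozygous and 3 WT mice was used. The authors deposited TPM per Ensembl transcript with gene symbols, per the file headers. The column of each library sums to 1000000. FastQC, Trimmomatic, HISAT2, kallisto and the build mm10 are named in the submitters' processing notes, while versions, annotation release and strand setting were not given in the sources used here. All 6 columns matched 1 library by name (0 unmatched).

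TPM was summed per gene and taken to log2(TPM + 1). Features reaching 1 TPM in 3 libraries or more were tested with limma 3.58.1 (R 4.3.3, with a mean trend and robust variances, no covariate, Benjamini-Hochberg adjustment over 11099 genes or 21165 isoforms). Structures came from GENCODE M21, in which all 47 rows matched. TPM holds no depth. Depth was estimated from low values of genes with a lone transcript, of which 69.8% to 71.8% were whole within the tolerance (6.0% by chance). The test was checked on simulated data with 200 changed features and independent noise in each library, so without a library-wide shift. For genes (11099) it recovered 0% of changes of 0.5 on the log2 scale, 49.5% of changes of 1 and 92.0% of changes of 2. For isoforms (21165) it recovered 0%, 0.0% and 75.0%.

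The members, lists and markers were chosen with earlier results of these data known. Named were the members, isoforms with at least 10% of their gene in any library or the largest share difference, the 2 genes at each end of each list, the 5 genes most like Synm, Des and Vim (1 of them is not reported here), and genes chosen after their values were seen (Synm-202, Synm-203, Synm-205, Hspb2). Alternatives are in the closing section. Deviations of same-numbered libraries correlated at -0.07, 0.06 and -0.01 across genes.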

Additional observations from a re-analysis of the deposited data

How the results depend on the processing

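Removing the length trend and leaving out isoforms under 600 nt were chosen after seeing the data. No gene passed the threshold in the fit described, and 810 did with array weights. With 1 library left out at a time, 0 to 2 genes passed (2 without WT replicate 1, 1 without WT replicate 2), none of them among the 7. The 9 isoforms became 3 with quantile normalization, 4 with a pseudocount of 0.1, 5 with median centring, 14 with array weights, 4 after length trend removal, 5 when mitochondrial transcripts were dropped and 0 with no filter. Leave-one-out fits called 0 to 38 isoforms (38 without WT replicate 1). With the replicate number as a block 0 genes and 0 isoforms passed. Deviations of same-numbered libraries correlated at -0.07 to 0.06 across genes. With 3 libraries per group this cannot settle whether the numbers pair the samples. Of 413 further values, 374 moved by less than the spread between replicates, 28 moved more and 11 changed sign. The Synm-204 share difference ran from -47.4 to -18.8 points when each library was left out, the smallest without WT replicate 3. Signs changed for Plec-217 (leave-one-out -0.98 to 0.28, the latter without homozygous replicate 3), for the Sync-201 share (0.16, 0.19 and 0.055 points without homozygous replicates 2 and 3 and WT replicate 3, lowest -1.20) and for the Vim-203 share (-0.45 points without WT replicate 2, highest 16.0). The median of other intermediate filament genes was -0.18, -0.22 and -0.23, and that of turnover genes -0.037, -0.077 and -0.042, with quantile normalization, median centring and the length trend removed. The cause was not tested. Estimated depth limits rows such as Plec-219, with 5.23 to 19.0 fragments.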
